A study of Mus musculus with 2 samples.

Results

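Matrix proteases and their inhibitors were followed as a set of 10 genes, chosen by name from 19357 genes listed in either count matrix. The set holds 4 matrix metalloproteinases (Mmp2, Mmp3, Mmp9, Mmp14), 3 ADAMTS proteases (Adamts1, Adamts4, Adamts5) and 3 tissue inhibitors of metalloproteinases (Timp1, Timp2, Timp3), and both matrices listed all 10. Aortic cells came from male C57BL/6 mice of the genotype Apoe -/-, which lack the lipoprotein ligand apolipoprotein E and develop atherosclerosis. Diabetic mice had received intraperitoneal streptozotocin, a toxin of insulin-producing beta cells, daily over 5 days from the age of 6 weeks, with 55 mg per kg of body weight each time. Control mice of the same genotype, strain and sex had received citrate vehicle. Follow-up lasted 10 weeks, and the labels give the age as 17 weeks. The cells of 4 mice were pooled in each group and made into 1 single-cell 3' library per group, so the mice cannot be told apart and no difference has a replicate check. The series asks about the activator protein-1 (AP-1) complex in atherosclerosis associated with diabetes.

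Matrix metalloproteinases are zinc enzymes that are mostly secreted as inactive proenzymes, are activated by other proteases, and cut collagens, elastin and basement membrane. ADAMTS proteases are related secreted enzymes, several of which cut the large proteoglycans aggrecan and versican that swell the vessel wall. TIMPs bind the active site of matrix metalloproteinases and block them, and Timp3 also blocks ADAMTS aggrecanases. In the artery the balance of enzymes and inhibitors is known to bear on remodelling of the wall and on the fibrous cap of plaques. Transcript counts do not measure proenzyme activation or enzyme activity.

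Depth was 17647604 unique molecular identifiers (UMIs, each a tag of 1 captured transcript) over 3458 diabetic barcodes and 15314749 UMIs over 4215 control barcodes. The authors' table names the class of 2524 diabetic and 3060 control cells, with a median of 4477.5 UMIs per diabetic cell and 3760 per control cell. Of 13 classes, 7 had at least 50 cells in each library. They are smooth muscle VSMCs-1 (159 diabetic and 134 control cells) and VSMCs-2 (856 and 496), fibroblast Fib-1 (245 and 386), Fib-2 (533 and 907) and Fib-3 (67 and 117), endothelial ECs (228 and 366) and the macrophage class Mac (229 and 510). All 6 markers of the labelled type were detected in each of these classes, and fibroblast markers, for example, summed to between 20054 and 32310 CPM (the UMIs of a gene scaled to a common total for all UMIs of the class) in the fibroblast classes. Erythroid markers were far higher in diabetic cells of several classes, at 8235 CPM in diabetic against 89.8 CPM in control VSMCs-2, 5755 against 104 CPM in Fib-2, 32949 against 2061 CPM in Fib-1 and 14293 against 82.2 CPM in Fib-3. Their part in the CPM of other genes was tested only by leaving haemoglobin, mitochondrial and ribosomal protein genes out of the totals. The 2 libraries shared 15 barcode sequences, 8 of them annotated in both.

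The sequence before the start of 3 members is shown because the series is about AP-1. They are Mmp3, the MMP with most UMIs, Adamts1, the ADAMTS gene with most UMIs, and Timp1, whose direction differed between cell classes. Each line holds the 250 bases before the start in RefSeq on GRCm38.p6, 5′ to 3′ on the strand of the gene. Capitals mark the AP-1 motif TGANTCA (N is any base) and the TATA motif TATAAA, searched on both strands.
Mmp3, chr9:7445572-7445821, plus strand: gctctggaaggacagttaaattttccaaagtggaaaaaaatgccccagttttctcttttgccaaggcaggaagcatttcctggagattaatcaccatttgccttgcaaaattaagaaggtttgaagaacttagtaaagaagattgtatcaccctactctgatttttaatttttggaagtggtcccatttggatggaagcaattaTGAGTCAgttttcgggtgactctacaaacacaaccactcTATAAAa
Adamts1, chr16:85803114-85803363, minus strand: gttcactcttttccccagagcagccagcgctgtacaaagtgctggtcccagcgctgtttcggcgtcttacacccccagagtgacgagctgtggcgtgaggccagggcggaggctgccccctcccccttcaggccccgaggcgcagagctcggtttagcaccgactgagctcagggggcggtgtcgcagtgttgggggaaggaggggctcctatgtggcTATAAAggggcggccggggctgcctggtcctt
Timp1, chrX:20869916-20870165, plus strand: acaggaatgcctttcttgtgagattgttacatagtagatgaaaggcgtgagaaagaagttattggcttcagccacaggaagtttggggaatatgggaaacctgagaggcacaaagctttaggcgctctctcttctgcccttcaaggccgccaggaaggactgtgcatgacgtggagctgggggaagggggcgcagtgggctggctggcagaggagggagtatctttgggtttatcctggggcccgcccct

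A RefSeq sequence was matched for 6 of the 10 members (Mmp3, Mmp14, Timp1, Timp2, Timp3 and Adamts1). The AP-1 motif was present in 1 of the 6, Mmp3, as TGAGTCA at 46 to 40 bases before the start, and in 6.75% of 32851 promoters in the same 250-base window. TATAAA was present in Mmp3 and Adamts1, against 12.4% of all promoters. The GC-box motif GGGCGG, also searched on both strands and not marked in capitals, was present in the 5 members other than Mmp3 and in 32.7% of all promoters. None of these matches overlapped one of another motif. A match describes the letters and shows no binding. On GRCm38 the genes themselves lie on separate chromosomes (Mmp3 at chr9:7445822-7455975, Timp1 at chrX:20870166-20874735), except Adamts1 (chr16:85793827-85803113) and Adamts5 (chr16:85856173-85901828), which are both on the minus strand of chromosome 16.

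The members differed in the cells that held them. Fib-2 alone held 83.7% of diabetic and 84.5% of control Mmp3 UMIs, and 66.6% of diabetic and 72.4% of control Mmp2 UMIs. Mac held 92.0% of diabetic and 97.6% of control Mmp9 UMIs. Timp3 and Adamts1 were spread over smooth muscle, fibroblasts and endothelium, and Adamts5 was highest in Fib-3. In T cells, NKT Cells and B Cells together (141 diabetic and 73 control cells), no member reached more than 8 UMIs in either library.

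**Figure D1:**
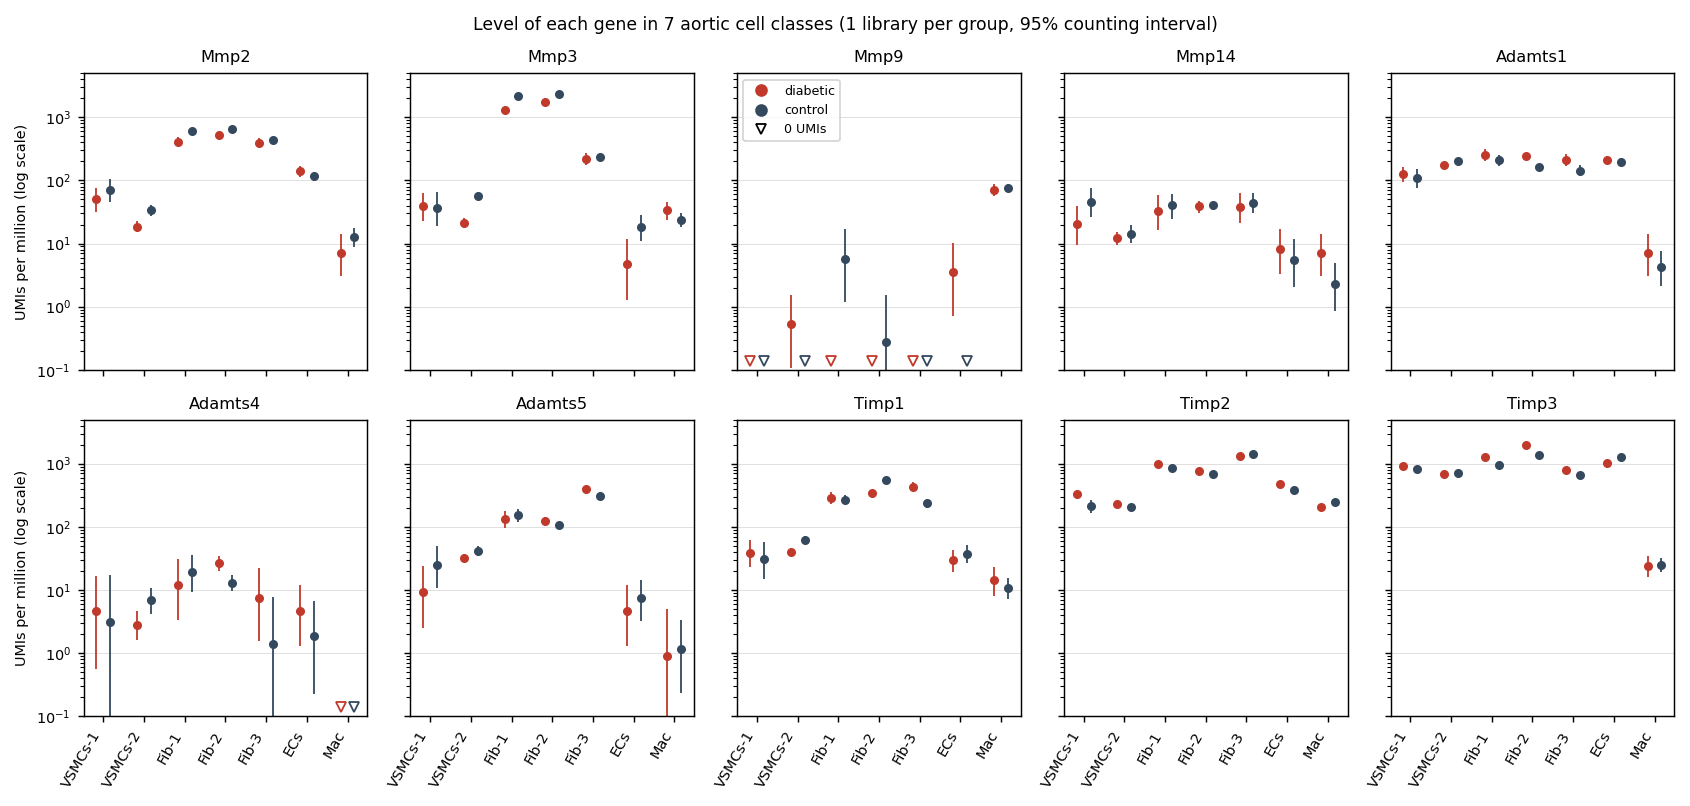
Level of each gene, in CPM on a log scale, in the 7 classes with at least 50 cells in each library, with 95% counting intervals and diabetic points left of control points. Mmp2, Mmp3, Timp1 and Adamts5 are highest in fibroblast classes, Mmp9 is at 71.7 CPM in diabetic and 77.2 CPM in control Mac and near 0 elsewhere, and Timp3 lies at 649 CPM or more in every class but Mac.

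Over the 70 pairs of a member and a class, 49 had at least 30 UMIs in both libraries together. Of these, 4 were at least 1.5-fold higher in diabetic cells, against 9.35% of 42960 gene and class pairs in the same 7 classes, and 8 were at least 1.5-fold lower, against 8.39%. That is 8.16% of the members' pairs higher, near the background, and 16.3% lower. The median log2 ratio of diabetic over control CPM was -0.07 over the 49 pairs. The higher pairs were Timp2 in VSMCs-1, Adamts1 and Adamts4 in Fib-2, and Timp1 in Fib-3. The lower pairs were Mmp2, Mmp3, Timp1 and Adamts4 in VSMCs-2, Mmp2 and Mmp3 in Fib-1, Timp1 in Fib-2 and Mmp2 in Mac. None of the 4 MMPs of the set was past 1.5-fold upward in a class where it had at least 30 UMIs. Of these 12 pairs, 11 had a 95% interval that excluded a ratio of 1, and Mmp2 in Mac did not. These exact conditional binomial intervals cover counting error only, not variation between mice.

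By class, 2 of 9 members with enough UMIs were higher in diabetic Fib-2 (background 8.59%) and 1 was lower (6.17%). In VSMCs-2 none of 9 were higher (8.63%) and 4 were lower (5.69%). Fib-1 had none of 8 higher (7.86%) and 2 lower (11.9%), and Fib-3 had 1 of 8 higher (8%) and none lower (13.6%). VSMCs-1 had 1 of 4 higher (8.74%) and none lower (10.4%). ECs had none of 5 higher (8.22%) or lower (8.53%), and Mac had none of 6 higher (13.9%) and 1 lower (9.37%).

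**Figure D2:**
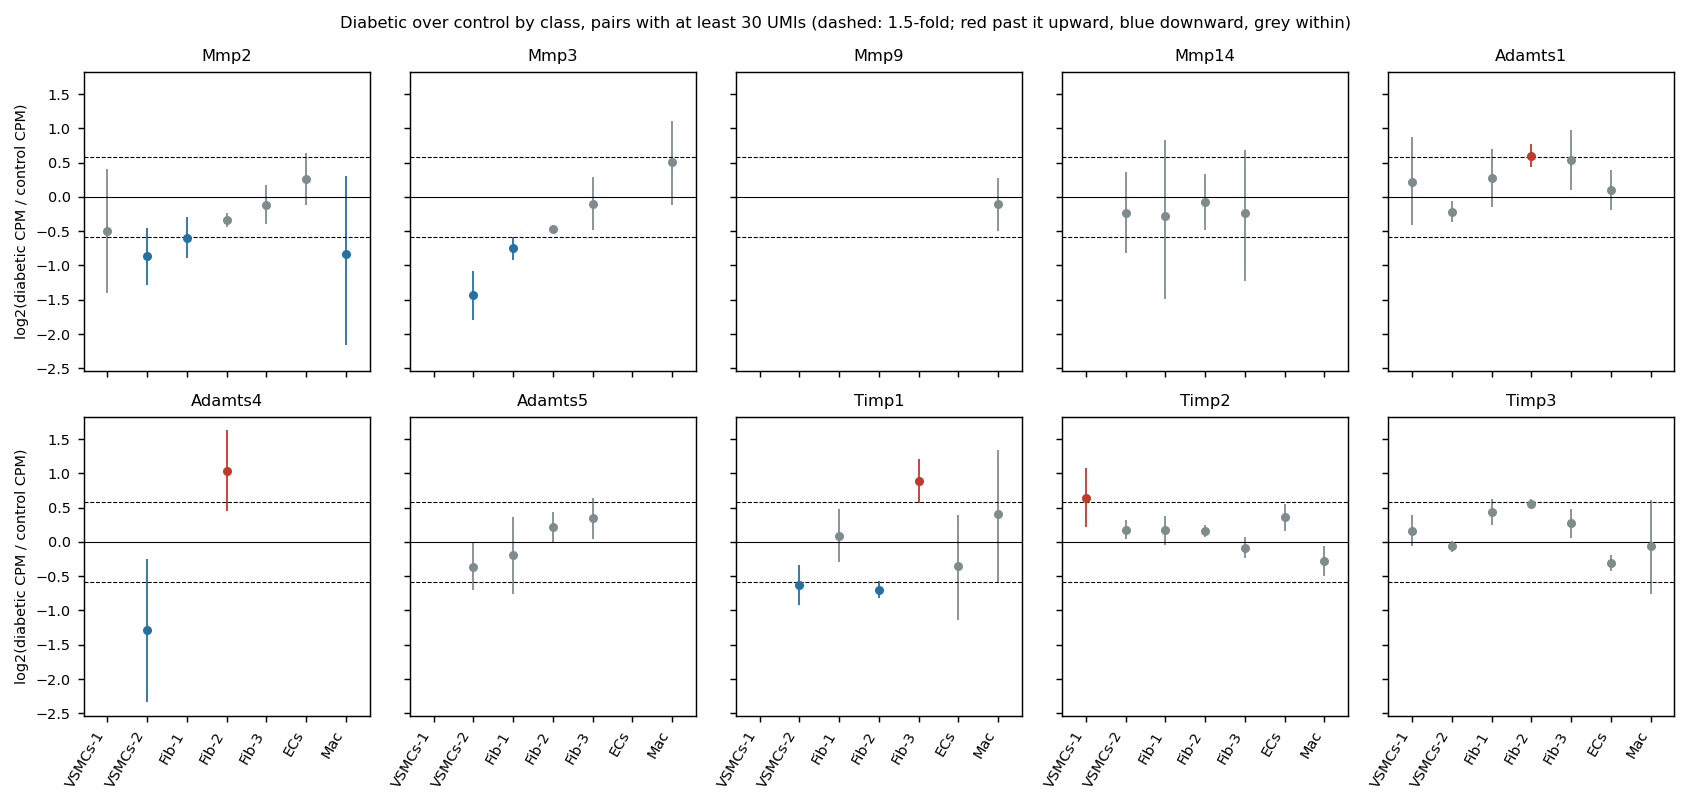
Log2 ratio of diabetic over control CPM with its 95% counting interval for the 49 pairs of a gene and a class with at least 30 UMIs. Dashed lines mark 1.5-fold, red points lie past it upward (4 pairs) and blue points downward (8 pairs). Timp1 and Adamts4 have points on both sides.

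Mmp3, stromelysin-1, cuts proteoglycans, laminin and fibronectin and activates other proenzymes of its family. It was the MMP with most UMIs here. In Fib-2 its 3639 diabetic UMIs gave 1720 CPM and its 8668 control UMIs gave 2384 CPM, a ratio of 0.722 (95% interval 0.694 to 0.750), lower in diabetic cells but just inside 1.5-fold. In 3 of 9 alternatives it was past 1.5-fold, with the lowest ratio, 0.623, without cells with at least 3 markers of another type. In Fib-1 the levels were 1318 CPM in diabetic and 2218 CPM in control cells, a ratio of 0.594 (0.531 to 0.664). Fib-3 held less, at 219 CPM in diabetic and 234 CPM in control cells, and the interval of its ratio, 0.936, spanned 1. The diabetic level was thus lower past counting error in the 2 fibroblast classes with most Mmp3.

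Most Mmp3 UMIs of Fib-2 lay in a minority of its cells. A UMI was found in 259 of 533 diabetic cells (48.6%) and 489 of 907 control cells (53.9%), and after each cell was thinned to 1000 UMIs in 38.8% of diabetic (interval 34.7 to 43.1) and 41.3% of control cells (38.1 to 44.6). No Fib-2 cell was too shallow to thin. In ECs, which should hold little Mmp3, the thinned shares were 1.36% of 220 diabetic and 2.33% of 343 control cells, with 8 and 23 cells left out as too shallow. Median depths were 3656 and 3770 UMIs in diabetic and control Fib-2 and 3504 and 2867 UMIs in diabetic and control ECs. The 10% of Fib-2 cells with most Mmp3 held 68.1% of its UMIs in diabetic and 63.0% in control cells, and the richest cell had 198 diabetic and 245 control UMIs. Cells with 10 or more Mmp3 UMIs made up 17.4% of diabetic and 24.6% of control Fib-2 cells. The share of cells with any UMI thus differed less than the share with many.

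**Figure D3:**
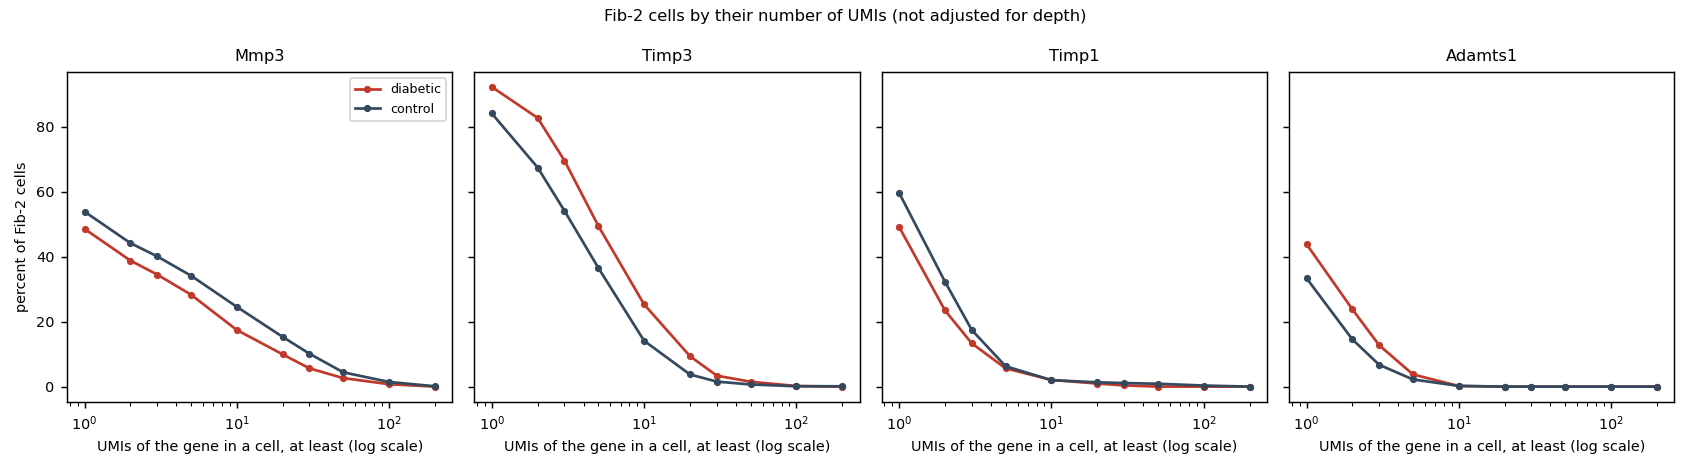
Percent of Fib-2 cells (533 diabetic, 907 control) with at least the number of UMIs of the gene on the x axis, which is logarithmic, with no adjustment for depth. The diabetic line lies below the control line for Mmp3 at 1 to 200 UMIs and above it for Timp3 at 1 to 50 UMIs, and the Timp1 lines meet near 10 UMIs, which 2.06% of diabetic and 1.98% of control cells reach.

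In VSMCs-2 Mmp3 was low, with 120 diabetic UMIs (21.0 CPM) and 158 control UMIs (56.8 CPM), a ratio of 0.370 (0.289 to 0.472). Those UMIs sat in 30 of 856 diabetic and 42 of 496 control cells, and 1 cell held 28.3% of the diabetic and 1 cell 31.6% of the control UMIs. Summed fibroblast markers moved the same way in that class, at 526 CPM in diabetic and 1049 CPM in control cells, with none of the 6 at 0 in either library. Macrophage markers were 19.8 CPM in diabetic and 86.9 CPM in control VSMCs-2, and chondrocyte markers 35.5 and 162 CPM. When cells with at least 3 markers of another cell type were left out, the Mmp3 ratio in VSMCs-2 was 0.810. In the 106 diabetic and 61 control VSMCs-2 cells without any UMI of a fibroblast marker it was 0.0983, on 6 UMIs, an alternative chosen after seeing the data.

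Mmp2, gelatinase A, cuts denatured collagen and basement membrane collagen and is expressed widely in stromal cells. Its levels in diabetic and control cells were 516 and 652 CPM in Fib-2, 406 and 614 CPM in Fib-1, and 398 and 431 CPM in Fib-3. The ratio was 0.792 (0.736 to 0.851) in Fib-2, 0.662 (0.538 to 0.812) in Fib-1 and 0.924 (0.758 to 1.12) in Fib-3. Diabetic values were therefore lower in all 3 fibroblast classes, past counting error in Fib-1 and Fib-2. Summed fibroblast markers were lower too, with diabetic to control ratios of 0.776 for Fib-2, 0.790 for Fib-3 and 0.920 for Fib-1; their part in the result was not tested. The Fib-1 value lay close to 1.5-fold, and 5 of 9 alternatives put it inside, with the highest ratio at 0.718. In VSMCs-2 Mmp2 was at 18.5 CPM in diabetic and 33.8 CPM in control cells, a ratio of 0.549 (0.412 to 0.732), beside the lower fibroblast markers given above. The ratio was 0.668 without cells with at least 3 markers of another type, and 0.983 on 12 UMIs in the VSMCs-2 cells without any UMI of a fibroblast marker. ECs differed in direction from these classes, with 139 CPM in diabetic and 116 CPM in control cells, but the interval of that ratio spanned 1 (1.20, 0.926 to 1.55). After thinning the EC ratio was 1.56, with a UMI in 12.7% (8.63 to 17.9) of diabetic and 7.00% (4.53 to 10.2) of control cells. In ECs without any UMI of a fibroblast marker it was 0.936. Mac held 8 diabetic and 33 control UMIs of Mmp2.

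Mmp14, the membrane-bound enzyme that activates proMmp2 at the cell surface, was sparse. It had 210 diabetic and 272 control UMIs in all annotated cells, and its highest count in a class was 82 diabetic and 148 control UMIs, in Fib-2 (38.8 and 40.7 CPM). In the 4 classes with enough UMIs its ratio lay between 0.822 in Fib-1 and 0.952 in Fib-2, and every interval spanned 1. After thinning, the VSMCs-2 ratio was 2.17, on 19 UMIs in 15 of 856 diabetic and 4 of 496 control cells. At this depth no difference in Mmp14 passed counting error in the unthinned sums of these 4 classes. Over all annotated cells, where the class mix differed between the libraries, the ratio was 0.808 (0.672 to 0.971).

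Mmp9, gelatinase B, is known from macrophages and from the granules of neutrophils. In Mac it was at 71.7 CPM (81 UMIs) in diabetic and 77.2 CPM (202 UMIs) in control cells, a ratio of 0.929 (0.709 to 1.21). A UMI was found in 43 of 229 diabetic and 98 of 510 control Mac cells (18.8% and 19.2%), and after thinning in 6.03% of 199 diabetic and 8.45% of 497 control cells, with 30 and 13 cells left out. Fib-2, which should lack it, had 0 of 533 diabetic thinned cells with a UMI, which allows a share of up to 0.563%, and 0 of 907 control cells, which allows up to 0.331%. Median depth was 4129 UMIs in diabetic and 4506 in control Mac cells.

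The class labelled Mac held cells with neutrophil transcripts. At least 3 of 4 neutrophil markers (S100a8, S100a9, Retnlg, Csf3r) were detected in 32 of 229 diabetic (14.0%) and 42 of 510 control Mac cells (8.24%). Neutrophil markers summed to 48639 CPM in those diabetic and 40077 CPM in those control cells, and to 211 and 175 CPM in the other diabetic and control Mac cells. Macrophage markers were also present in them, at 7879 CPM in the diabetic and 11896 CPM in the control cells. Mmp9 was higher in these cells, at 263 CPM (interval 179 to 373) in diabetic and 135 CPM (91.8 to 192) in control cells, than in the other Mac cells, at 49.4 CPM (36.7 to 65.2) in diabetic and 71.6 CPM (61.3 to 83.2) in control cells. They held 38.3% of the Mmp9 UMIs of diabetic Mac and 15.3% of those of control Mac. The ratio of diabetic over control was 1.95 (1.14 to 3.31) in the cells with neutrophil markers and 0.690 (0.493 to 0.950) in the rest, against 0.929 in the whole class. This division was made after the values were seen, and the difference between the 2 ratios was not tested. In the Mac cells with fewer neutrophil markers, macrophage markers were at 10652 CPM in diabetic and 18004 CPM in control cells. Over the whole class they were at 10363 CPM in diabetic and 17468 CPM in control Mac (ratio 0.593). The part of these markers in the Mmp9 ratios was not tested.

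**Figure D4:**
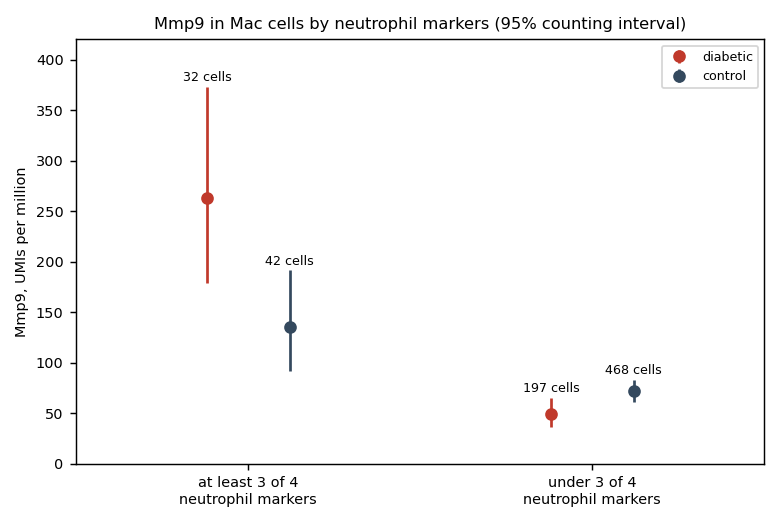
Mmp9 level in Mac cells, in CPM with 95% counting intervals, for cells with at least 3 of 4 neutrophil markers (32 diabetic, 42 control) and cells with fewer (197 diabetic, 468 control). The diabetic point is above the control point at left (263 and 135 CPM) and below it at right (49.4 and 71.6 CPM).

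Adamts1, which cuts versican and aggrecan, was higher in diabetic Fib-2. It had 518 diabetic UMIs (245 CPM) and 586 control UMIs (161 CPM) there, a ratio of 1.52 (1.35 to 1.71). The richest cell held 2.12% of the diabetic and 2.73% of the control UMIs, so no single cell carried the level. A UMI was found in 43.9% of diabetic and 33.4% of control Fib-2 cells, and after thinning in 18.8% (15.5 to 22.3) and 13.2% (11.1 to 15.6). In Mac, which should hold little of it, thinned shares were 0 of 199 diabetic cells, which allows up to 1.51%, and 0.402% of 497 control cells. Smooth muscle markers were 1190 CPM in diabetic and 814 CPM in control Fib-2, and whether they bear on the result was not tested. The ratio lay just past 1.5-fold: it was 1.48 with trimmed mean scaling, 1.47 after thinning and 1.61 without cells carrying at least 3 markers of another type.

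In Fib-3 Adamts1 was at 209 CPM in diabetic and 144 CPM in control cells (ratio 1.46, 1.08 to 1.96), and in Fib-1 at 253 and 209 CPM (1.21, 0.899 to 1.62). VSMCs-2, which held 51.7% of the diabetic and 34.7% of the control Adamts1 UMIs, went the other way, with 174 CPM in diabetic and 202 CPM in control cells (0.862, 0.776 to 0.957). ECs gave 210 CPM in diabetic and 195 CPM in control cells, with an interval that spanned 1. The diabetic level was thus higher in all 3 fibroblast classes, past counting error in Fib-2 and Fib-3, and lower in VSMCs-2.

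Adamts4, an aggrecanase, was the least abundant member, with 85 diabetic and 80 control UMIs in all annotated cells. In Fib-2 its 56 diabetic UMIs (26.5 CPM) and 47 control UMIs (12.9 CPM) gave a ratio of 2.05 (1.37 to 3.09). They lay in 30 diabetic and 39 control cells, and after thinning in 8 of 533 diabetic and 13 of 907 control cells, with a ratio of 1.44 on 24 UMIs. In VSMCs-2 its 16 diabetic and 19 control UMIs gave 0.410 (0.197 to 0.842), with the control UMIs in 8 cells, 1 of which held 31.6% of them. The other 5 classes had too few UMIs for a ratio.

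Adamts5, the main aggrecanase of mouse cartilage, was highest in Fib-3, at 393 CPM in diabetic and 309 CPM in control cells (1.27, 1.03 to 1.57). Fib-1 followed with 132 CPM in diabetic and 151 CPM in control cells, then Fib-2 with 125 and 108 CPM, whose intervals overlap those of Fib-1 in diabetic but not quite in control cells. In VSMCs-2 it was at 32.2 CPM in diabetic and 41.3 CPM in control cells (0.779, 0.614 to 0.992). ECs and Mac held at most 8 UMIs in either library. No pair of Adamts5 was past 1.5-fold in the unthinned sums. After thinning the ratio was 1.66 in Fib-2 and 2.04 in Fib-3, while the other alternatives were inside 1.5-fold in both. The thinned shares in Fib-2 were 12.9% (10.2 to 16.1) of diabetic and 8.27% (6.56 to 10.3) of control cells.

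Timp3, the inhibitor that stays bound to the extracellular matrix and blocks ADAMTS aggrecanases as well as MMPs, had most UMIs of the inhibitors, 10174 in diabetic and 9598 in control cells. In Fib-2 its 4203 diabetic UMIs gave 1987 CPM and its 4904 control UMIs gave 1349 CPM, a ratio of 1.47 (1.41 to 1.54), just inside 1.5-fold and past it under 5 of 9 alternatives. A UMI was found in 92.3% of diabetic and 84.1% of control cells, and after thinning in 71.3% (67.2 to 75.1) of diabetic and 55.7% (52.4 to 58.9) of control cells. Thinned shares in Mac were 2.01% of diabetic and 2.41% of control cells. Timp3 was also higher in diabetic Fib-1, at 1282 CPM against 949 CPM in control (1.35, 1.18 to 1.54), and in Fib-3, at 786 CPM against 649 CPM (1.21, 1.05 to 1.40). ECs went the other way, with 1040 CPM in diabetic and 1287 CPM in control cells (0.808, 0.742 to 0.879). VSMCs-2 differed little, at 684 CPM in diabetic and 715 CPM in control cells (0.956, 0.906 to 1.01).

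Timp2, which inhibits MMPs and also takes part with Mmp14 in the activation of proMmp2, was highest in Fib-3, at 1319 CPM in diabetic and 1399 CPM in control cells. In 6 of 7 classes its ratio lay between 0.828 (0.709 to 0.964) in Mac and 1.28 (1.11 to 1.47) in ECs, all inside 1.5-fold. VSMCs-1 was the exception, with 143 diabetic UMIs (328 CPM) and 68 control UMIs (210 CPM), a ratio of 1.56 (1.16 to 2.12). With every cell weighted equally that ratio was 1.40, and after thinning it was 1.19, with 38 diabetic and 25 control cells left out. In Mac, Timp2 was the main inhibitor, at 204 CPM in diabetic and 247 CPM in control cells. After thinning its Mac ratio was 0.557, with a UMI in 12.1% (7.88 to 17.4) of diabetic and 20.1% (16.7 to 23.9) of control cells.

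Timp1, a secreted inhibitor known to be induced in injured and inflamed tissue, gave opposite directions in different classes. In Fib-3 it was at 433 CPM (172 UMIs) in diabetic and 234 CPM (168 UMIs) in control cells, a ratio of 1.85 (1.49 to 2.30), but 1 diabetic cell held 26.7% of the UMIs and without the richest cell of each library the ratio was 1.47. Chondrocyte markers were 121 CPM in diabetic and 16.7 CPM in control Fib-3, with 3 of 4 at 0 in diabetic cells, and their part in the result was not tested. In Fib-2 it was at 337 CPM (712 UMIs) in diabetic and 546 CPM (1985 UMIs) in control cells, a ratio of 0.617 (0.565 to 0.672). In VSMCs-2 the levels were 40.0 CPM in diabetic and 62.2 CPM in control cells (0.644, 0.527 to 0.790), beside the lower fibroblast markers there. A single diabetic VSMCs-2 cell held 20.5% of the diabetic UMIs, and without the richest cell of each library the ratio was 0.550. Without cells with at least 3 markers of another type the ratio was 0.728. Fib-1 showed 286 CPM in diabetic and 268 CPM in control cells, and that interval spanned 1.

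Most of the Timp1 CPM difference in Fib-2 lay in the deepest cells. The 46 control cells with most UMIs (5% of the class) held 923 of 1985 Timp1 UMIs, 46.5%, at 2431 CPM, while the 27 such diabetic cells held 132 of 712 UMIs, 18.5%, at 581 CPM. The remaining cells were at 307 CPM in diabetic and 326 CPM in control, a ratio of 0.942 (0.850 to 1.04). The share of these remaining cells with a Timp1 UMI still differed, at 241 of 506 diabetic (47.6%) and 502 of 861 control cells (58.3%), with median depths of 3570 and 3697 UMIs. The 8 control cells with 50 or more Timp1 UMIs had no diabetic counterpart. Chondrocyte markers (Col2a1, Acan, Chad, Comp) were at 202 CPM in the deepest diabetic and 5797 CPM in the deepest control cells, and at 267 and 312 CPM in the other diabetic and control cells. Fibroblast markers were at 30940 CPM in the deepest control cells and 32470 CPM in the other control cells. They were at 16096 CPM in the deepest diabetic cells and 26140 CPM in the other diabetic cells. Whether this difference bears on the Timp1 values was not tested. Erythroid markers reached 47945 CPM in the deepest diabetic cells. Cells with at least 3 of the 4 chondrocyte markers numbered 3 diabetic, with 2 Timp1 UMIs, and 10 control, with 190 Timp1 UMIs (2397 CPM). Leaving out only these gave a Timp1 ratio of 0.668. After thinning, 21.0% (17.6 to 24.7) of diabetic and 26.1% (23.3 to 29.1) of control Fib-2 cells had a Timp1 UMI, against 0 of 199 diabetic and 1.41% of control Mac cells. Unthinned shares were 49.2% of diabetic and 59.6% of control Fib-2 cells.

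Timp3 was also higher in the deepest control cells, at 2731 CPM against 1187 CPM in the other control cells, while the deepest diabetic cells had 1772 CPM against 2013 CPM in the rest. Without the deepest cells its Fib-2 ratio was 1.70. Mmp3 had the reverse distribution, at 2889 CPM in the deepest diabetic cells against 1580 CPM in the other diabetic cells and 1746 CPM in the deepest control cells against 2458 CPM in the other control cells.

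Family sums put these values together. In Fib-2 the 4 MMPs summed to 2275 CPM in diabetic and 3077 CPM in control cells (0.740, 0.715 to 0.765), the 3 ADAMTS genes to 397 and 282 CPM (1.41, 1.28 to 1.54), and the 3 TIMPs to 3078 and 2570 CPM (1.20, 1.16 to 1.24). Fib-1 showed the same directions for MMPs, with 1758 CPM in diabetic and 2878 CPM in control cells (0.611, 0.554 to 0.673), and for TIMPs, with 2538 and 2080 CPM (1.22, 1.11 to 1.34). In ECs the TIMP sum was 1552 CPM in diabetic and 1702 CPM in control cells (0.912, 0.849 to 0.979). Mac gave 243 CPM of TIMPs in diabetic and 282 CPM in control cells (0.859, 0.745 to 0.988). Macrophage markers were lower in diabetic Mac too (0.593), and their part in this sum was not tested.

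Since 3' UMIs are counted per captured transcript end and not per length, TIMP and protease UMIs can be set in a ratio within a library. This ratio sets all 3 TIMPs against MMPs and ADAMTS proteases alike, whichever enzymes each inhibitor blocks. TIMP UMIs per protease UMI were 1.15 in diabetic and 0.765 in control Fib-2, and 1.18 in diabetic and 0.639 in control Fib-1. VSMCs-2 had 3.66 in diabetic and 2.77 in control cells, and VSMCs-1 had 5.16 in diabetic and 3.66 in control cells. ECs had 4.14 in diabetic and 4.95 in control cells, Mac had 1.90 in diabetic and 2.33 in control cells, and Fib-3 had 2.01 in diabetic and 1.96 in control cells. Mmp3 made up 64.4% of diabetic and 71.0% of control protease UMIs in Fib-2. Without Mmp3 the values were 3.23 in diabetic and 2.64 in control Fib-2, 3.03 in diabetic and 2.002 in control Fib-1, 3.98 in diabetic and 3.30 in control VSMCs-2, and 6.11 in diabetic and 4.20 in control VSMCs-1. More TIMP UMIs per UMI of the member proteases were thus found in diabetic Fib-1, Fib-2, VSMCs-1 and VSMCs-2, with and without Mmp3. Other proteases were not counted, such as Mmp23, with 926 diabetic and 382 control UMIs in VSMCs-2. The TIMP sum of VSMCs-2 itself differed little (0.973, 0.929 to 1.02). Fibroblast markers were at 526 CPM in diabetic and 1049 CPM in control VSMCs-2, and their part in this result was not tested. In ECs and Mac the TIMP UMIs per protease UMI were lower in diabetic cells. Without Mmp3 they were 4.19 in diabetic and 5.22 in control ECs, and 2.58 in diabetic and 2.90 in control Mac. A single Mac cell held 78.9% of the 38 diabetic Mmp3 UMIs of that class, and the value without that cell was not computed. The protease sums of ECs and Mac differed within counting error, with ratios of 1.09 (0.936 to 1.27) in ECs and 1.05 (0.858 to 1.28) in Mac. So did that of VSMCs-1, at 0.861 (0.647 to 1.15).

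Over all annotated cells, 4 members were at least 1.5-fold lower in the diabetic library (11.2% of 12753 genes) and none was higher (10.3%). Mmp2 was at 139 CPM in diabetic and 264 CPM in control cells (0.524), Mmp3 at 367 and 828 CPM (0.444), Mmp9 at 7.44 and 16.7 CPM (0.445) and Timp1 at 109 and 207 CPM (0.525). The class mix differed between the libraries: Fib-2 was 21.1% of diabetic and 29.6% of control annotated cells, VSMCs-2 33.9% and 16.2%, and Mac 9.07% and 16.7%. With class levels weighted by 1 fixed mix, the mean of both libraries' shares, the ratios were 0.774 for Mmp2, 0.683 for Mmp3, 0.917 for Mmp9 and 0.750 for Timp1, and no member was past 1.5-fold. Timp3 was then at 1.21 and Adamts1 at 1.17. Digestion and sorting can set these shares, so a change in the tissue and a change in recovery cannot be told apart.

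**Figure D5:**
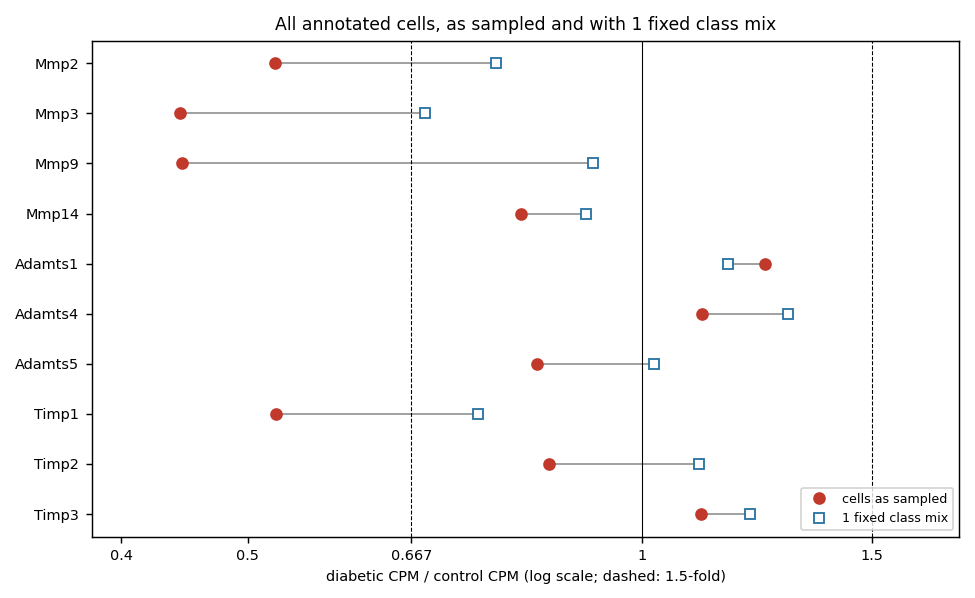
Ratio of diabetic over control CPM over all annotated cells on a log scale, as sampled (filled circles) and with 1 fixed class mix (open squares), with dashed lines at 1.5-fold. Mmp2, Mmp3, Mmp9 and Timp1 lie past the line as sampled (0.444 to 0.525) and inside it with the fixed mix (0.683 to 0.917).

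Members were detected in the same Fib-2 cells about as often as the product of their shares gives. After thinning, 19 pairs of members had a product of at least 20 cells, and the number of cells with both ran from 0.856 to 1.11 times the product in diabetic cells (median 0.996) and from 0.934 to 1.12 times in control cells (median 1.02). Mmp3 and Timp3, for example, were found together in 146 of 533 diabetic cells, where the product gives 148, and in 198 of 907 control cells, where it gives 209. Mmp3 and Timp1 were together in 39 diabetic cells (product 43.5) and 99 control cells (product 98.0). Departures were larger for some pairs in other classes: Timp2 and Adamts1 were together in 32 diabetic VSMCs-2 cells (product 23.3), and Timp3 and Adamts1 in 27 control Fib-1 cells (product 21.8). Counts this sparse would hide a weak relation.

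Other genes of the pathway were taken as 8 lists, and over the 7 classes they gave 179 pairs with at least 30 UMIs, of which 16 (8.94%) were higher and 18 (10.1%) lower in diabetic cells, close to the backgrounds of 9.35% and 8.39%. Among other MMPs 4 of 17 pairs were higher and 2 lower, with a median log2 ratio of 0.11. Mmp13, a collagenase, had 42 diabetic and 4 control UMIs in Fib-2, but 1 cell held 95.2% of the diabetic count, and in Mac it had 14 diabetic and 75 control UMIs (0.432, 0.226 to 0.771). Mmp19 in Mac had 46 diabetic and 58 control UMIs (1.84, 1.22 to 2.75), and in Fib-3 8 and 23 UMIs with an interval that spanned 1. Mmp16 in VSMCs-2 (28 diabetic and 8 control UMIs) and the neutrophil collagenase Mmp8 in Mac (14 and 18) were past 1.5-fold upward with intervals that spanned 1.

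Other ADAMTS genes had 3 of 19 pairs higher and 1 lower. Adamts8 was split like Adamts4, with 30 diabetic and 23 control UMIs in Fib-2 (2.24, 1.26 to 4.04) and 112 diabetic and 83 control UMIs in VSMCs-2 (0.657, 0.490 to 0.883). Adamts9 in Fib-2 and Adamts2 in VSMCs-1 were past 1.5-fold upward with intervals that spanned 1. ADAMTS-like genes, which lack the protease domain, had 2 of 18 pairs higher, Adamtsl1 (88 diabetic and 36 control UMIs, ratio 1.81, 1.22 to 2.75) and Adamtsl5, both in VSMCs-1. ADAM sheddases had 1 of 31 pairs higher, Adam8 in Mac with 56 diabetic and 60 control UMIs (2.16, 1.47 to 3.16), and 4 lower (Adam9 in Fib-3 and ECs, Adam10 in Fib-3, Adam19 in VSMCs-2), whose intervals all spanned 1.

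The plasminogen system, which makes plasmin and so activates several proMMPs, had 2 of 39 pairs higher and 6 lower, with a median log2 ratio of -0.29. Plat, tissue plasminogen activator, was at 83.7 CPM in diabetic and 139 CPM in control Fib-2 (0.600, 0.503 to 0.714) and at 280 and 456 CPM in Fib-3 (0.613, 0.490 to 0.763). Plaur, the urokinase receptor, was lower in diabetic Mac, with 103 CPM against 184 CPM in control (0.558, 0.452 to 0.685), and in Fib-3 (0.527, 0.333 to 0.810). Macrophage markers were lower in diabetic Mac too (0.593), and their part in the Plaur value was not tested. Anxa2, which binds Plat and plasminogen, was at 1032 CPM in diabetic and 1763 CPM in control Fib-3 (0.586). Serpine2, named after its values were seen, had 99 diabetic and 39 control UMIs in Mac (5.88, 4.02 to 8.75), in 16 diabetic and 24 control cells. There 1 cell held 26.3% of the diabetic and 1 cell 23.1% of the control UMIs. Serpine2 was far higher in VSMCs-2, at 1394 CPM in diabetic and 1773 CPM in control cells. Smooth muscle markers were at 682 CPM in diabetic and 251 CPM in control Mac, and their part in the Serpine2 value was not tested.

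Of other protease inhibitors 3 of 20 pairs were higher and 1 lower. Cst3, cystatin C, was at 4220 CPM in diabetic and 2645 CPM in control Fib-3 (1.60, 1.49 to 1.71), with 17.9% of the diabetic UMIs in 1 cell. Reck, a membrane-anchored MMP inhibitor, had 36 diabetic and 29 control UMIs in Fib-1 (1.95, 1.16 to 3.29). Timp4 had 30 diabetic and 20 control UMIs in ECs (1.92, 1.06 to 3.57) and 18 and 23 UMIs in VSMCs-1, where the interval spanned 1. Proenzyme activators and clearance receptors had 1 of 27 pairs higher (Furin in Fib-1) and 1 lower (Pcsk5 in Fib-3), both with intervals that spanned 1. Of proteoglycan substrates and their link protein, none of 8 pairs was higher and 3 were lower. Acan, aggrecan, had 6 diabetic and 117 control UMIs in Fib-2 (0.0882, 0.0317 to 0.198), in 3 diabetic and 15 control cells, and Hapln1 had 8 diabetic and 35 control UMIs there, while Vcan in Fib-1 had 12 and 34 UMIs with an interval that spanned 1.

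The genes whose pattern over the 14 class and library values was most like each member, by Pearson correlation of log2(CPM + 1) among 7686 genes, were Il33, C1ra and Ergic3 for Mmp2 (0.97 to 0.99), and Inmt, Dio2 and Wnt5a for Mmp3 (0.97 to 0.98). They were Napsa, Epsti1 and Mpeg1 for Mmp9 (0.97 to 0.98) and Abi3bp, Thbs3 and Jade1 for Mmp14 (0.94 to 0.96). For Adamts1 they were Cttn, Nedd4 and Golim4 (all 0.98), for Adamts4 Nr2f2, Boc and Abcd3 (0.92 to 0.94) and for Adamts5 Tnxb, Sh3d19 and C1s1 (all 0.97). For Timp1 they were Serping1, Srpx and Pdlim2 (0.96 to 0.98), for Timp2 Tmem100, Slc44a1 and Sfrp4 (0.95 to 0.97) and for Timp3 Cdc42ep5 and Kazald1 (0.98 to 0.99). Among members the closest pair was Timp3 and Adamts1 (0.97) and the least alike was Mmp9 and Timp3 (-0.90). These points share 2 libraries and differ in depth between classes, so the correlations are a description.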

How the data were processed

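The authors deposited 1 matrix of UMI counts per library (10x Genomics single cell 3' v2, per the labels' protocols) and a table that names the cell class of annotated barcodes. Counts were made with Cell Ranger 3.1.0 on mm10, and Partek was also used, per the submitters' processing notes. No source used here names the annotation release or a barcode filter (not given in the sources used here), and no barcode had under 500 UMIs. Cells were live cells sorted after enzyme digestion and incubation at body temperature, per the labels' protocols, which can set class shares. UMIs were summed per library and class over annotated cells, leaving out 2 diabetic barcodes with a blank class, and scaled to CPM with exact Poisson 95% intervals. Ratios are diabetic over control with exact conditional binomial intervals, and shares of cells have Clopper-Pearson intervals. Intervals, and the limit of 3 counts that a count of 0 allows, cover counting error only, and UMIs remove PCR copies. A pair counted as past 1.5-fold with at least 30 UMIs in both libraries together. With 1 library per group no test was run. Intervals were checked only on simulated counts drawn with the counting error that they assume. That check cannot show the effect of UMIs clustered in single cells. No doublet caller was run, and cells with at least 3 markers of an unrelated type were left out as an alternative. Other alternatives were trimmed mean scaling, totals without mitochondrial, ribosomal protein and haemoglobin genes, equal weight per cell, thinning, leaving out the richest cell, the deepest 5% of cells or barcodes found in both libraries, other UMI minimums and 2-fold. Thinning to 1000 UMIs used seed 1. All 10 members are named, with up to 4 genes per related list past the size rule in a class, ranked by UMIs, and the 3 genes most like each member (at least 100 UMIs in each library), except 2 genes that are not reported here. The members, lists and markers were chosen with earlier results of these data known. Python 3.11.15, numpy 2.4.6, scipy 1.17.1, pandas 2.3.3, matplotlib 3.10.9, R 4.3.3 and edgeR 4.0.16 (trimmed mean scaling as an alternative) were used. Gene positions are from the GENCODE annotation of GRCm38, matched by symbol.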

Additional observations from a re-analysis of the deposited data

Results flagged for a closer look

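Timp1 and Adamts4 were past 1.5-fold in opposite directions in different cell classes under the same contrast. For Timp1 the ratio of diabetic over control was 1.85 in Fib-3, 0.644 in VSMCs-2 and 0.617 in Fib-2. Without the 5% of cells with most UMIs the Fib-2 value was 0.942. The Fib-3 value was 1.47 without cells with at least 3 markers of another type. For Adamts4 the ratio was 2.05 in Fib-2 and 0.410 in VSMCs-2, the latter on 16 diabetic and 19 control UMIs. With 1 library per group, the difference between classes was not tested for either gene.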

How the results depend on the processing

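No paired analysis was possible because each group is 1 library. Against 4 higher and 8 lower pairs of a member and a class, the number higher was 7 with totals that leave out mitochondrial, ribosomal protein and haemoglobin genes and 1 at 2-fold. The number lower was 2 at 2-fold, 13 with a minimum of 10 UMIs, 5 after thinning, 5 without the 5% of cells with most UMIs, 4 without cells with 3 markers of another type, and 3 without cells outside the fibroblast classes that had a fibroblast marker UMI. The last alternative was chosen after seeing the data, removed 750 of 856 diabetic and 435 of 496 control VSMCs-2 cells, and turned the direction of Timp1 there to 1.15, on 10 UMIs. The cause was not tested. In the other settings run, both counts stayed within 1.5 times the reported ones. Of 547 single ratios under the alternatives, 37 lay on the other side of 1 from the reported ratio, and this was so for 1 of the 150 whose reported ratio was past 1.5-fold, the Timp1 value above. Mmp14 in VSMCs-2, for example, was at 2.17 on 19 UMIs after thinning. Without cells with neutrophil markers, an alternative chosen after seeing the data, Mmp9 in Mac was 0.690. Trimmed mean scaling shifted all Mac ratios by -0.12 on the log2 scale. Depth limited Mmp14, Adamts4 and the 21 of 70 pairs with under 30 UMIs.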

Other observations

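Barcodes to which the authors' table gives no class, 934 diabetic and 1155 control, also held these genes. Mmp3 was at 33.2 CPM in diabetic and 289 CPM in control barcodes, Mmp2 at 11.2 and 143 CPM, Timp1 at 41.8 and 200.4 CPM, and Timp3 at 122 and 316 CPM. All 10 genes had the lower level in the diabetic barcodes, as did 97.6% of the 9459 genes with at least 30 UMIs there, with a median ratio of 0.430. Erythroid markers summed to 420012 CPM in diabetic and 51880 CPM in control barcodes, and their part in these values was not tested.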
